A study of Mus musculus with 18 samples.

Results

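A set of 10 transcription factor genes that are used as marks of mesenchymal cells was followed in mouse embryonic fibroblasts: Twist1, Twist2, Snai1, Snai2, Prrx1, Prrx2, Zeb1, Zeb2, Tcf21 and Meox1. They were picked by gene symbol from the authors' deposited gene table, and all 10 were among its 35734 genes, 9 of them with an adjusted p. The study asked what the zinc finger factors Ikzf1 and Ikzf4 add when fibroblasts are pushed towards a neuronal state. All fibroblasts came from the R26-M2rtTA mouse line (strain C57BL/6), carried lentiviral vectors switched on by doxycycline, and were taken at 48 h of doxycycline. Cells of one group expressed Brn2 and Myt1l alone and those of the other Brn2, Myt1l, Ikzf1 and Ikzf4, with 3 RNA-seq libraries per group. Brn2 and Myt1l were thus present in both groups, and no fibroblasts without vectors are in the comparison. The labels do not say whether the libraries of a group came from separate cultures, so the p-values measure the spread between these libraries, which may be technical. The sources used here do not give the age of the embryos.

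These factors are known for setting and keeping the mesenchymal state. Twist1 and Twist2 are basic helix-loop-helix (bHLH) proteins that bind E-box sequences as dimers, and the Snail proteins (Snai1, Snai2) and Zeb proteins (Zeb1, Zeb2) are zinc finger repressors of epithelial genes such as the E-cadherin gene Cdh1. Prrx1 and Prrx2 are paired-related homeodomain proteins of limb and craniofacial mesenchyme, Tcf21 is a bHLH factor of epicardial and visceral mesenchyme, and Meox1 is a homeodomain factor of the somites. In reprogramming of fibroblasts such genes belong to the programme of the starting cell.

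The promoters of the Prrx genes, of Zeb2 and of Snai1 are shown because the results below turn on them: Prrx1 and Prrx2 differed in direction, Zeb2 rose, and the Snai1 promoter was the most accessible of these in retina. They run from 250 bases before to 50 bases after the annotated start, 5′ to 3′ on the strand of the gene, from RefSeq on GRCm38.p6. For Prrx1 and Prrx2 this start lies inside the RefSeq gene span, downstream of its 5′ end. With 2 kb added on both sides, the Prrx1 gene ends at 163317145 and the Prrx2 gene begins at 30843064. Their 5′ ends were not taken as promoters. Capitals mark GGGAA or its reverse complement TTCCC, the core bound by Ikaros proteins, and CAGGTG or its reverse complement CACCTG, the E-box bound by Snail and Zeb factors. No capital run of one motif overlapped one of the other.
Prrx1, chr1:163313601-163313900, minus strand: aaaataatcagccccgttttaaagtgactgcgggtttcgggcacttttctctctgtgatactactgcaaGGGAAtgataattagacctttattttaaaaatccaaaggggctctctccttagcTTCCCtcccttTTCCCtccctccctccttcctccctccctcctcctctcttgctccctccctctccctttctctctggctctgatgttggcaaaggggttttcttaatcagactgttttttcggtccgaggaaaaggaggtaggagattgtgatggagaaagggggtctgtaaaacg
Prrx2, chr2:30845117-30845416, plus strand: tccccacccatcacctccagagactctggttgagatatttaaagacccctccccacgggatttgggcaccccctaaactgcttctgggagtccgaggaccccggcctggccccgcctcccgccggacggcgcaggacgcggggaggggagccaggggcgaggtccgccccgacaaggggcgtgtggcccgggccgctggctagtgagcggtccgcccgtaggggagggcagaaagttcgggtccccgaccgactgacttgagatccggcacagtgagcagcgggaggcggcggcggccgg
Zeb2, chr2:45117393-45117692, minus strand, the farthest upstream of 4 listed starts: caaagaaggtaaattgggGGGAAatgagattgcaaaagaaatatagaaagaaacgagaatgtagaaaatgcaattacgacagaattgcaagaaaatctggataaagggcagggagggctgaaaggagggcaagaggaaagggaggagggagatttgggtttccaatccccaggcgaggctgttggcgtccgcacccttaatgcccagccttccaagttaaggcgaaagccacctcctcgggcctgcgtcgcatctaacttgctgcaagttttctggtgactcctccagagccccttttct
Snai1, chr2:167537945-167538244, plus strand: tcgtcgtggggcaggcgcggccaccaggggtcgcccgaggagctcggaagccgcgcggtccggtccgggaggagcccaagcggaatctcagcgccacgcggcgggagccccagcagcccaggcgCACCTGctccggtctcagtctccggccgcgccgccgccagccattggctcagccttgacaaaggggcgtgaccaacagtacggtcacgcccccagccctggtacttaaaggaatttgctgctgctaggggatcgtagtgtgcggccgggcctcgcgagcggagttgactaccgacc

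The Prrx1 promoter held 3 matches to the Ikaros core, at -181, -127 and -116 relative to the start (the base before the start is -1), and that of Prrx2 held 0. Such a match is common, being found in 63% of 21263 promoters of coding genes with a median of 1 per promoter. It is given as a description only, and binding there was not tested. The Zeb2 promoter shown had 1 match and that of Snai1 had 0, as had those of Twist1 and Twist2, while that of Tcf21 had 2. The other Zeb2 starts held 2, 2 and 1, from the farthest downstream on. The E-box was found at -126 in Snai1 and in no other listed promoter of these genes, against 19.7% of all promoters. The homeodomain core TAATT (reverse complement AATTA) lay at -173 and -172 in Prrx1, where both strands of 1 site overlap. In Zeb2 it lay at -179 in the promoter shown and at -114 in that of the farthest downstream start. Of all promoters, 23.5% held this core. It was not found in the promoters of Prrx2 and Snai1. Base composition also parted the listed Prrx promoters. That of Prrx1 had 47.7% G and C with a CpG ratio (observed over expected) of 0.36, and that of Prrx2 had 70.3% and 0.76. The medians over all promoters were 56.3% and 0.57. The motif counts and composition of each Prrx gene rest on 1 start inside the gene span. Sequence at the 5′ ends of the spans was not examined. Snai1 (70.0%), Twist1 (66.0%) and Twist2 (64.7%) were on the GC-rich side, and Tcf21 (53.3%) and the farthest upstream Zeb2 start (49.3%) below the median. The middle Zeb2 starts (52.7% each) were below it as well, and the farthest downstream one (60.7%) was above it. Promoters were matched for 7 of the 10 genes, and those of Snai2, Zeb1 and Meox1 are named only.

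RNA-seq libraries held 34966344 to 44270426 estimated reads. In the authors' deposited table the fibroblast markers were abundant (8 of 8 with an adjusted p, means of 269 to 120590 normalised counts), and 6 of the 8 were lower with Ikzf1 and Ikzf4, among them Dcn (-1.77, SE 0.08) and Col3a1 (-1.29, SE 0.06). The same deposited table held 4 of 4 hematopoietic markers (Ptprc, Adgre1, Csf1r, Cd68) at means of 1146 to 2580, and 0 of them differed at an adjusted p under 0.05 (1 at a raw p under 0.05; DESeq2, the authors). Of 4 skeletal muscle genes, the regulators Myod1, Myog and Myf5 were at means of 0.159, 0.16 and 0.155 in the deposited table. The muscle filament gene Des had a mean of 83.5 and was at -0.48 (SE 0.21, raw p 0.0202), not called, in the deposited table. Epithelial markers (6 of 6 listed, 3 with an adjusted p) had means of 0.164 to 50.3 in the deposited table, with 1 call, Epcam, which was higher. Endothelial (4 of 4 with an adjusted p, means of 6.57 to 132) and neural crest and glia markers (3 of 4, means of 1.5 to 88.4) held 0 calls in the deposited table, with 0 and 1 at a raw p under 0.05 (DESeq2). Of 5 neuron markers, 4 had an adjusted p and 1 was called in the deposited table: Tubb3, a neuronal tubulin, was lower, at -0.42 (SE 0.10, DESeq2 adjusted p 0.00033; mean 2443). The part of other cells in the results was not tested. In bulk RNA, fewer cells of a type and less RNA per cell cannot be told apart.

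Of the mesenchymal factors, 2 fell, 2 rose and 5 were not separated between the groups, while Tcf21 was barely detected. Snai2 and Prrx1 were lower with Ikzf1 and Ikzf4, and Prrx2 and Zeb2 were higher. Calls rest on the authors' deposited table and its adjusted p from DESeq2, with a threshold of 0.05. At that threshold 30.6% of the 16757 genes with an adjusted p in the deposited table were called, 15.3% higher and 15.4% lower. The members' share was 44.4% (4 of 9), and the median log2 fold change of the 9 was 0.02 against -0.0004 for all genes in the deposited table. Among genes with a mean of at least 400, 39.1% were called in the deposited table, and of the 8 factors above that mean 4 were. The same 4 were called at an adjusted p under 0.01 (22.5% of genes in the deposited table), with Benjamini-Hochberg adjustment over all genes with a raw p (19.3%) and at a mean of at least 10 (34.1%). None was past an absolute log2 fold change of 1 as well, where 2.15% of genes in the deposited table were. With so few factors, no share sets the factors apart from genes of like abundance. Values per library cannot be given for genes, because the sources used here do not pair the deposited transcripts with genes. The deposited table gives 1 mean over all 6 libraries, a log2 fold change and its standard error for each gene. Its standard errors were smallest at the lowest means (median 0.049 for means up to 1, 0.172 from 100 to 200), a pattern that shrunken fold changes have, so the changes printed may understate those of genes with few reads.

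**Figure D1:**
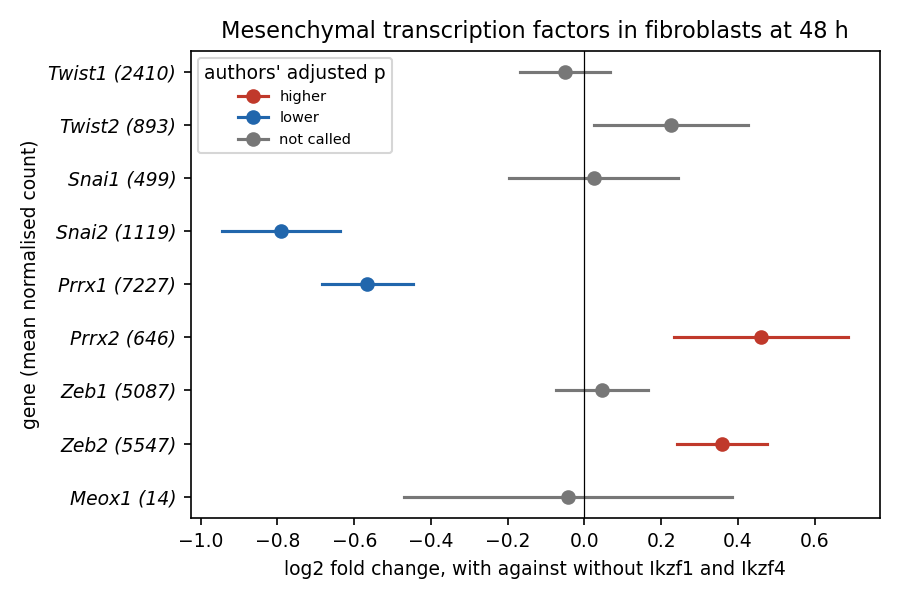
Log2 fold change (x axis, with against without Ikzf1 and Ikzf4, authors' deposited table) of the 9 mesenchymal factors with an adjusted p, with the mean normalised count in brackets on the y axis. Points are the deposited values and lines the 95% interval of 1.96 standard errors. Snai2 (-0.79) and Prrx1 (-0.57) lie left of 0, Prrx2 (0.46) and Zeb2 (0.36) right of it, and the intervals of Twist1, Snai1, Zeb1 and Meox1 include 0.

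Snai2 (ENSMUSG00000022676), the repressor also called Slug, had the largest difference of the set. Its log2 fold change in the authors' deposited table was -0.79 (SE 0.08, DESeq2 adjusted p 6.92e-22), a level 0.578 times that without Ikzf1 and Ikzf4 (95% interval 0.52 to 0.643), at a mean of 1119 normalised counts. Only 1.86% of genes with an adjusted p in the deposited table had a lower fold change. Among the 4600 genes within 2-fold of its mean in the deposited table, the median absolute log2 fold change was 0.15, so that Snai2 differed more than most genes measured with like precision (SE 0.079 against a median of 0.084). Its paralogue Snai1 (ENSMUSG00000042821), the founding member of the family, showed no such difference in the deposited table, at 0.02 (SE 0.11, DESeq2 adjusted p 0.912) and a mean of 499.2. The interval of Snai1 in the deposited table ran from -0.20 to 0.25 and that of Snai2 from -0.94 to -0.64, so they did not overlap. A change of Snai1 by the size seen for Snai2 lies outside its interval, while changes within the interval were not detectable.

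Prrx1 and Prrx2 went in opposite directions. Prrx1 (ENSMUSG00000026586), at a mean of 7227 the highest count of the set (counts are not scaled to gene length, so levels of different genes are not compared), fell by 32.5% by the authors' deposited table (log2 fold change -0.57, SE 0.06, DESeq2 adjusted p 7.2e-19). Of genes in the deposited table, 3.95% had a lower fold change. Prrx2 (ENSMUSG00000039476) rose by 37.6% in the deposited table (0.46, SE 0.12, DESeq2 adjusted p 0.000502) at a mean of 645.9. The difference between the fold changes was 1.03 on the log2 scale in the deposited table, with intervals of -0.69 to -0.45 and 0.23 to 0.69. The homeodomain proteins are close relatives with overlapping roles in limb mesenchyme, and the RNA of one rose where that of the other fell. With a Bonferroni correction over the 16757 genes with an adjusted p in the deposited table, Prrx2 was no longer called, and Prrx1, Snai2 and Zeb2 were, beside 10.7% of those genes. Their difference itself was not tested, because the covariance of genes is not in the deposited table.

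Zeb2 (ENSMUSG00000026872), a repressor also known from neural development, rose by 28.1% in the authors' deposited table (0.36, SE 0.06, DESeq2 adjusted p 3.69e-08; mean 5547). Zeb1 (ENSMUSG00000024238), nearly as high in counts at a mean of 5087, was at 0.04 (SE 0.06, DESeq2 adjusted p 0.645) in the deposited table. The intervals in the deposited table, -0.08 to 0.17 for Zeb1 and 0.24 to 0.47 for Zeb2, did not overlap. Both had like standard errors, so the lack of a call for Zeb1 did not come with a lower precision. RefSeq lists the antisense RNA Zeb2os and the miRNA Mir5129 within the Zeb2 locus, and long noncoding RNAs overlap Twist2, Prrx1, Zeb1 and Tcf21. Whether reads were counted by strand was not given in the sources used here, and only whole gene spans were compared, not exons. Whether reads of Zeb2os entered the count of Zeb2 was thus not tested, and the rise of Zeb2 is uncertain in that respect. The same limit holds for Twist2, Prrx1, Zeb1 and Tcf21.

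Twist1 (ENSMUSG00000035799), which acts in cranial and limb mesenchyme, was among the most precisely measured of the set. Its log2 fold change in the authors' deposited table was -0.05 (SE 0.06, DESeq2 adjusted p 0.591; mean 2410), and its 95% interval ran from 0.891 to 1.05 times the level without Ikzf1 and Ikzf4. Twist2 (ENSMUSG00000007805), the family member of dermal mesenchyme, was at 0.23 (SE 0.10; mean 892.6) in the deposited table. Its raw p was 0.0274 and its DESeq2 adjusted p 0.08 in the deposited table, so it missed the threshold, and its interval of 0.03 to 0.43 lay above 0 while overlapping that of Twist1. Twist2 is the gene just outside the threshold, and Prrx2 was the called one nearest to it.

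Meox1 (ENSMUSG00000001493) had few reads, with a mean of 13.99 and a log2 fold change of -0.04 (SE 0.22, DESeq2 adjusted p 0.917) by the authors' deposited table. Its deposited interval ran from -0.47 to 0.38, and with so few reads and a fold change that may be shrunken, no change is read as left out by it. Only 8.73% of the 1912 genes within 2-fold of its mean were called in the deposited table. Tcf21 (ENSMUSG00000045680) had a mean of 0.16 normalised counts in the deposited table and no adjusted p. That mean is 1 of the 6 commonest nonzero values, shared by 452 genes, as 1 read in 1 of 6 libraries gives. The visceral and epicardial member was thus not detected beyond a read, and no fold is given for it.

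**Figure D2:**
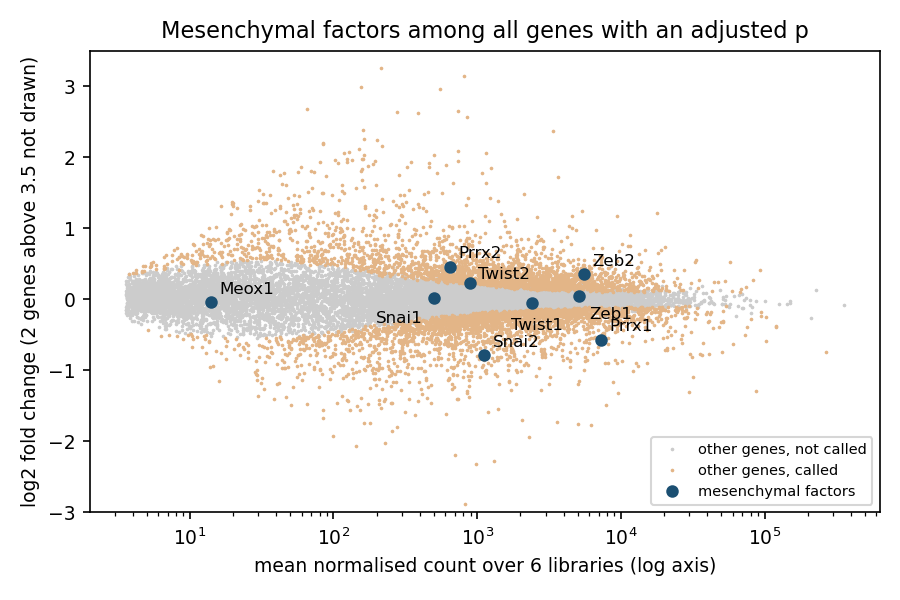
Log2 fold change (y axis) against the mean normalised count (x axis, log scale) for the 16757 genes with an adjusted p in the authors' deposited table, with 9 mesenchymal factors as large points. Snai2 (-0.79) and Prrx1 (-0.57) lie below 0 and Prrx2 (0.46) and Zeb2 (0.36) above it, while Twist1, Snai1, Zeb1 and Meox1 lie close to 0, the farthest being Twist1 at -0.05.

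Dimer partners and inhibitors of the bHLH factors changed in both directions. Twist proteins and Tcf21 bind DNA with E-proteins (Tcf3, Tcf4, Tcf12), and Id proteins block this by binding E-proteins themselves. Of 7 genes, 3 rose and 2 fell in the authors' deposited table (median log2 fold change 0.08). That is 71.4%, against 30.6% of all genes and 39.1% of those with a mean of at least 400 in the deposited table. Id4 (0.84, SE 0.11, DESeq2 adjusted p 1.44e-13) and Id2 (0.64, SE 0.08, DESeq2 adjusted p 1.99e-13) rose most clearly in the deposited table. Id3 fell, at -0.33 (SE 0.07, DESeq2 adjusted p 3.65e-05) in the deposited table, and so did the E-protein gene Tcf4, at -0.31 (SE 0.07, DESeq2 adjusted p 2.75e-05). Id1, named after its value was seen, was the remaining rise, at 0.37 in the deposited table. The Id genes therefore did not move as a block.

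Of the co-repressors that Snail and Zeb proteins recruit, 2 of 13 rose and 2 fell in the authors' deposited table, a share of 30.8% that is near the background, and 1 of the 4 was called at an adjusted p under 0.01. Sin3a, a scaffold of histone deacetylase complexes, was at 0.28 (SE 0.06, DESeq2 adjusted p 1.26e-05) and Eed, a Polycomb subunit, at 0.18 (SE 0.07) in the deposited table. The remodeller gene Smarca4 was at -0.13 (SE 0.04) and the histone demethylase gene Kdm1a at -0.12 (SE 0.05, DESeq2 adjusted p 0.0494) in the deposited table. All 4 were smaller in size than the changes of the called mesenchymal factors.

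Among 32 other mesenchymal transcription factors, 29 had an adjusted p in the authors' deposited table, with 6 higher, 4 lower and a median of 0.18. The share called, 34.5%, was near the 30.6% of all genes in the deposited table, and the count fell to 6 at an adjusted p under 0.01, where 22.5% of all genes in the deposited table were called. Runx2, the regulator of bone-forming cells, rose by 0.78 (SE 0.12, DESeq2 adjusted p 1.68e-09) and Tbx5, of the forelimb and heart, by 0.56 (SE 0.12, DESeq2 adjusted p 2.4e-05) in the deposited table. Lower were Tbx15, at -0.32 (SE 0.05, DESeq2 adjusted p 5.44e-08), and Hand2, at -0.48 (SE 0.10, DESeq2 adjusted p 1.49e-05), in the deposited table. Meox2, the paralogue of Meox1, was at 0.12 (SE 0.22) and the Snail relative Snai3 at 0.23 (SE 0.20) in the deposited table, neither of them called and both named for their kinship after their values were seen. 

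Genes that carry out the mesenchymal state moved mainly down. Of 20 such genes, 15 were lower and 0 higher by the authors' deposited table, with a median of -0.45. Of all genes in the deposited table, 15.4% were lower, and 39.1% of genes with a mean of at least 400 were called in either direction. The list had a median mean of 22394 and a highest of 228033, so neither share is matched to its abundance. Within 2-fold of the mean of Prrx1 (7227), 43% of genes were called in either direction. Tnc, a matrix glycoprotein, was at -0.81 (SE 0.05, DESeq2 adjusted p 4.31e-52) and Lox, which crosslinks collagen, at -0.76 (SE 0.05, DESeq2 adjusted p 4.9e-49) in the deposited table. The intermediate filament gene Vim fell by 0.59 on the log2 scale (SE 0.06, DESeq2 adjusted p 3.47e-20) and the N-cadherin gene Cdh2 by 0.51 (SE 0.06, DESeq2 adjusted p 2.75e-15) in the deposited table. Fn1, fibronectin, was at 0.14 (SE 0.07, DESeq2 adjusted p 0.163) there and was not called. The list shares Pdgfra, Pdgfrb and Thy1 with the fibroblast markers, and earlier results on these data had already shown fibroblast genes to be lower, so this count is not independent of them.

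Epithelial genes, which Snail and Zeb factors repress, mostly had few reads, with a median mean of 6.32 and a range of 1.16 to 443 in the authors' deposited table. The highest was the P-cadherin gene Cdh3, at -0.19 (SE 0.13) and not called in the deposited table. Of 20 listed, 13 had an adjusted p there, of which 3 were higher and 0 lower, with a median of 0.20. That share was 23.1%, against 30.6% of all genes in the deposited table, which are not matched to the low counts of this list. Of genes within 2-fold of the mean of Meox1 (13.99), 8.73% were called, but the 3 called genes of this list had higher means. No background matched to the list was made, so its share is not read as above or below one. Of the 13 genes, 10 lay above 0 and 3 below. Cdh1 had a mean of 5.75 and a log2 fold change of 0.14 (SE 0.18, DESeq2 adjusted p 0.609) in the deposited table, so it was not separated between the groups. Dsp, a desmosome protein gene, rose by 1.68 (SE 0.17, DESeq2 adjusted p 1.47e-20) at a mean of 158.4, and the keratin gene Krt19 by 0.61 (SE 0.17, DESeq2 adjusted p 0.00174) at a mean of 229.7 in the deposited table. Epcam, named after its value was seen, was the remaining rise, at 0.64 (SE 0.22) and a mean of 40.97 in the deposited table. Its calls were thus few, and 7 genes of the list had too few reads for an adjusted p.

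**Figure D3:**
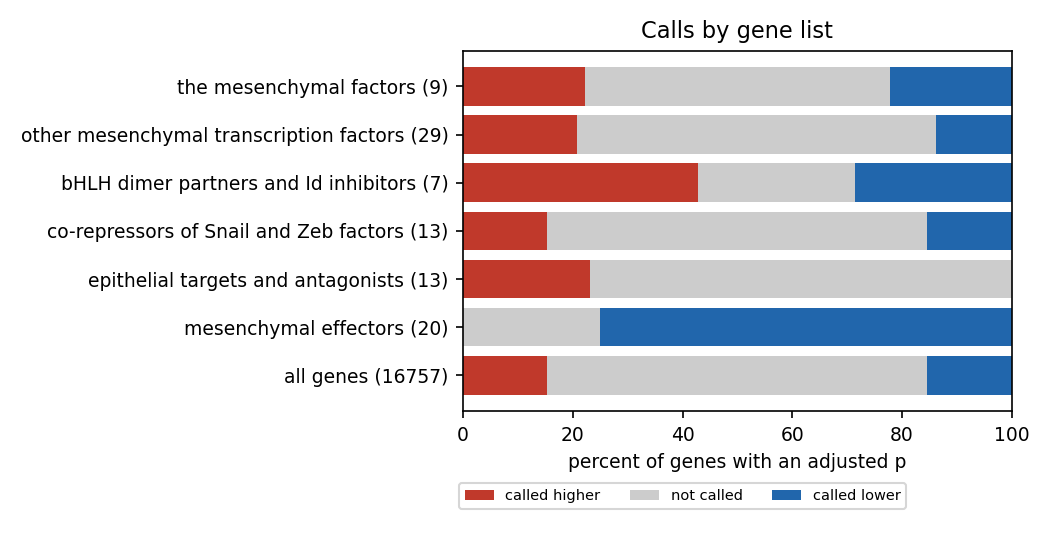
Percent of the genes with an adjusted p in the authors' deposited table that were called higher, lower or not called (x axis), by gene list (y axis, number of genes in brackets), with all genes as the bottom bar. Of the 9 mesenchymal factors 2 were higher, 2 lower and 5 not called, while 15 of the 20 mesenchymal effectors were called lower and 0 higher.

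Chromatin at these genes was read in retina, where the deposited fragments are on the build of the RefSeq annotation used (GRCm38). ATAC-seq reads open chromatin by where a transposase cuts, and each library here is the ATAC part of a single-nucleus multiome experiment, counted over all barcodes. Of its fragments, 34.6% in the control and 50.8% with Ikzf1/4 lay in barcodes with at least 3000 fragments, and the others in barcodes with fewer. The control was retina of C57BL/6 mice labelled as Muller glia with mCherry, from the line GLAST-CRE ERT2 ; RosaYFP, and the other library was labelled Ikzf1/4, with its title in place of tissue, line and strain. Tamoxifen and 14 days are given for both in the labels while the run names in the file headers read 48 h, and which of them applies could not be settled. With 1 library per group there is no replicate check and no test, and intervals cover counting error only. The control and Ikzf1/4 libraries held 52119123 and 29358834 unique fragments, from 102364299 and 134754357 read pairs. Barcodes with at least 3000 fragments numbered 1964 and 762, with medians of 6265.5 and 10817.5 fragments, so counts limited to them compare unlike numbers of barcodes. Gene windows (the gene and 2 kb on both sides) of Muller glia genes ranked above the middle of coding genes, with Glul at the 97.9 percentile of coding genes of the control library and 95.9 in the other by CPM per kb (fragments scaled to library size and window length). Rlbp1 was at 81.2 and 74.9, and Slc1a3 at 68.6 and 56.9. Among rod genes, Nrl was at the 77.2 and 91.2 percentiles and Nr2e3 at 73.2 and 80.9. Fragments were not assigned to cell types, and doublets were neither called nor removed.

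Of the mesenchymal factors, Snai1 stood out as accessible in retina, and the listed promoters of Prrx1, Twist1 and Tcf21 had few fragments. That of Prrx1, like that of Prrx2, was taken at a start inside the gene span. The Snai1 window had 1.53 CPM per kb in the control and 1.84 with Ikzf1/4, at the 91.0 and 91.2 percentiles of 21631 coding genes. The other windows ranged from 0.339 (Prrx1) to 0.588 (Meox1) in the control, between the 22.2 and 53.2 percentiles. In the Ikzf1/4 library they ranged from 0.299 (Prrx1) to 0.66 (Meox1). At the promoters, Snai1 had 327 and 244 fragments (79.1 and 80.4 percentiles of 21045 promoters). Twist1 had 10 and 10 fragments in the respective libraries, Tcf21 10 and 7, and Prrx1 8 and 1. Twist2 had 23 and 13, Prrx2 29 and 11, and the upstream Zeb2 start shown above 23 and 20. The other Zeb2 starts had 48 and 15, 54 and 14, and 45 and 24, the first of these windows largely overlapping the next. Over the 4 starts the ratio by CPM ran from 0.46 (0.24 to 0.84) to 1.54 (0.80 to 2.94), with a median of 1.21 for all promoters. In barcodes with at least 3000 fragments they were, from the farthest upstream on, at 1.07 (0.51 to 2.23), 0.44, 0.38 and 0.66, with a median of 0.923 for all promoters. Of the listed promoters, that of Snai1 therefore had the most fragments in both libraries, with no peaks called here. The fragments lay within a narrow stretch, with 320 and 236 in the 250 bases before the Snai1 start against 71 and 59 in the 250 before those. Zeb2 fragments rose in both libraries at the farthest upstream start, with 45 and 33 in the 250 bases from the start on. The 250 bases before that start held 19 and 18, and the 250 before those 3 and 7. The 250 bases from the middle starts on differed more, with 63 and 13 fragments (1.21 and 0.44 CPM). A further rise lay 500 to 749 bases after the farthest downstream start, with 61 and 60 fragments (1.17 and 2.04 CPM). Twist1 was highest in the 250 to 749 bases after its start, with 29 and 30 fragments in the control and 19 and 20 with Ikzf1/4. Around Prrx1 the bins from 1000 to 1999 bases after the start, inside the gene, held 19, 19, 12 and 7 fragments in the control and 12, 21, 20 and 14 with Ikzf1/4. The highest bin of each library lay among them.

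**Figure D4:**
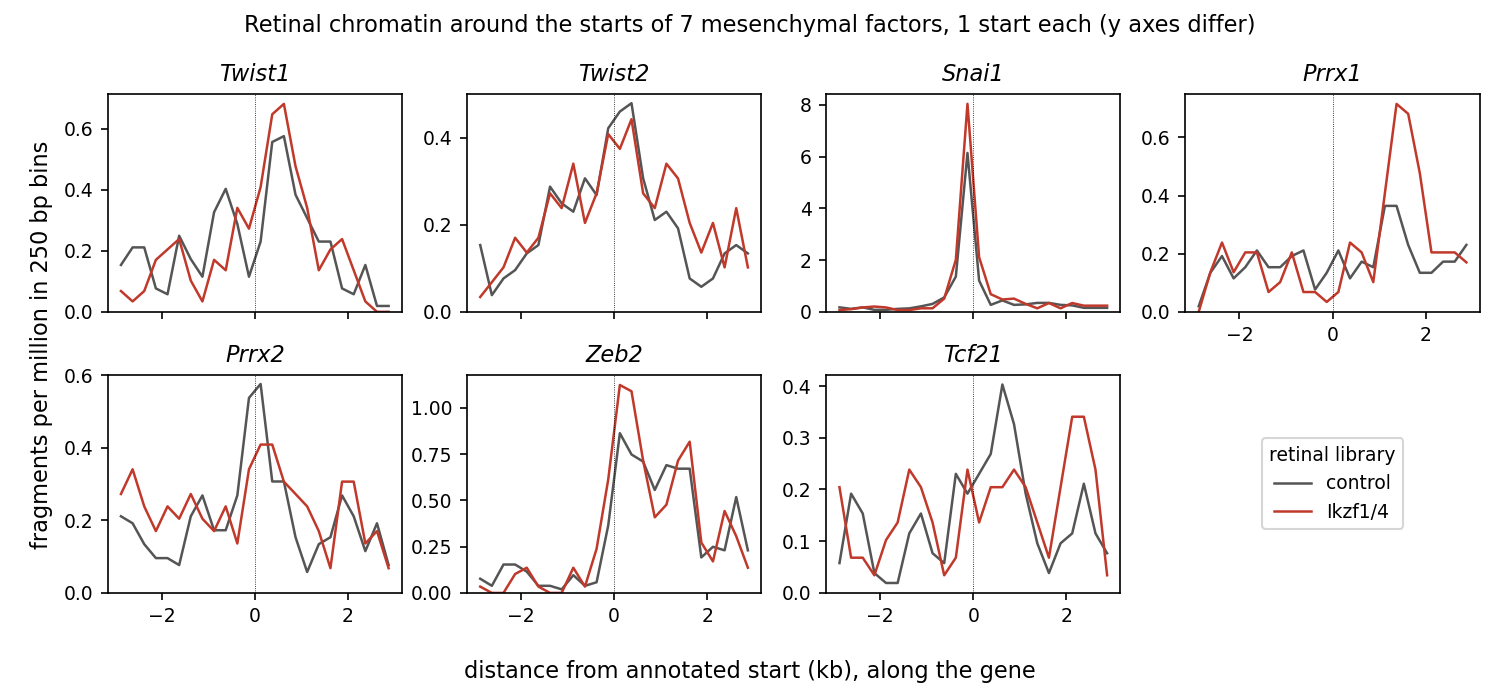
Unique fragments scaled to library size (CPM, y axis, a different range in each panel) in 250-base bins along 3 kb on both sides of the annotated start (x axis, kb) of 7 mesenchymal factors in the control (grey) and Ikzf1/4 (red) retinal libraries. Snai1 has a sharp peak just before its start in both libraries, and the highest value in the other panels is 1.12 CPM, in Zeb2 with Ikzf1/4. Of the 4 Zeb2 starts the farthest upstream is drawn, and around the farthest downstream one the highest bin reached 2.04 CPM. The Prrx1 and Prrx2 starts drawn lie inside the gene spans.

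Between the retinal libraries, 0 of the 10 gene windows differed by 1.5-fold or more in CPM, where 4.77% of 21112 windows did. The median ratio of all windows was 1.06 by CPM, 1.0 when scaled to fragments in gene windows and 0.979 in barcodes with at least 3000 fragments. Zeb1 was at a ratio of 1.29 (Ikzf1/4 over control, 95% counting interval 1.23 to 1.36), and it remained above 1 when scaled to fragments in gene windows (1.22) and in barcodes with at least 3000 fragments (1.21). Snai2 was at 0.70 (0.54 to 0.90), 0.66 and 0.83 in the same order, the last with an interval of 0.59 to 1.15 that includes 1. Snai1 was at 1.2 (1.07 to 1.35) and Zeb2 at 1.0 (0.95 to 1.06), and in barcodes with at least 3000 fragments they were at 1.0 and 0.89. Prrx1 turned with the choice of barcodes, from 0.88 (0.80 to 0.97) over all to 1.28 (1.08 to 1.51), and Twist1 went from 0.99 (0.77 to 1.26) to 1.68 (1.16 to 2.46), past the fold of 1.5, as 8.92% of 20540 windows were in those barcodes. Scaled to fragments in gene windows, Snai2 was past it, as were 5.64% of windows. For these genes no direction is read. Twist2 was above 1 in each count, at 1.10 (1.01 to 1.2), 1.04 and 1.49, with an interval for the middle value of 0.95 to 1.13. The intervals of Tcf21 and Meox1 included 1 in each count, and Prrx2 went from 1.09 to 0.96. By CPM, windows of rod genes were higher with Ikzf1/4, Nrl at a ratio of 1.97 (1.74 to 2.24) and Nr2e3 at 1.39 (1.26 to 1.53). Glul was at 0.92 (0.85 to 0.99). In barcodes with at least 3000 fragments Glul was at 0.69 (0.64 to 0.75). Of the microglia windows, P2ry12 went from 0.88 (0.80 to 0.98) to 0.58 (0.50 to 0.69) with the choice of barcodes and Csf1r from 1.04 (0.94 to 1.15) to 0.78 (0.66 to 0.93). Cx3cr1, at 0.87 (0.76 to 1.01) and 0.91 (0.73 to 1.13), moved by less than its counting interval. The part of the mixture of cells in the ratios of the mesenchymal factors was not tested.

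**Figure D5:**
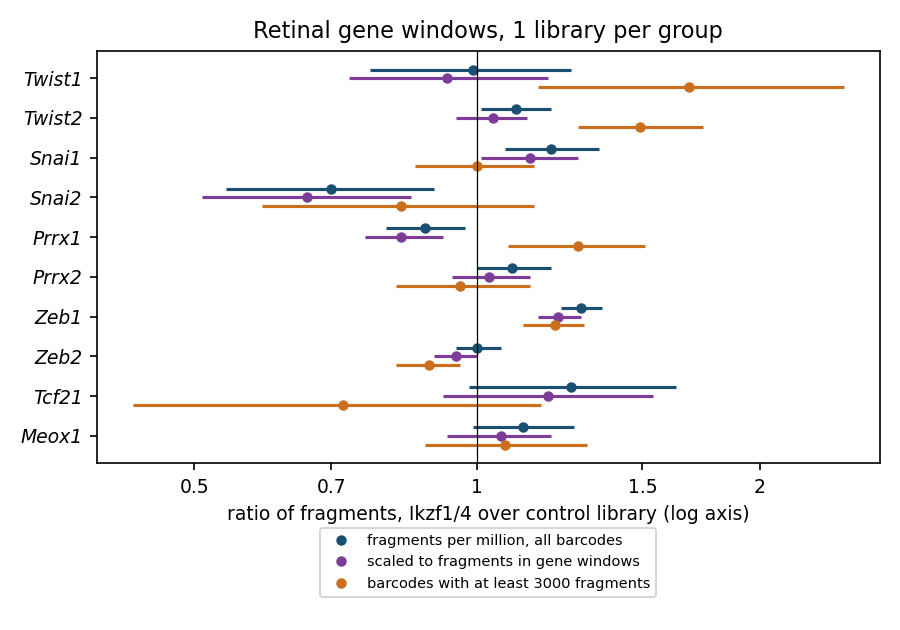
Ratio of fragments in gene windows, Ikzf1/4 over control retinal library (x axis, log scale), for the 10 mesenchymal factors (y axis) under each of 3 ways of counting, with 95% counting intervals as lines. Zeb1 lies right of 1 in each, while Twist1 (0.99 to 1.68), Prrx1 (0.88 to 1.28), Prrx2 (1.09 to 0.96) and Tcf21 (1.26 to 0.72) change sides between all barcodes and those with at least 3000 fragments.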

How the data were processed

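The authors deposited a DESeq2 comparison of salmon counts per gene (tools per the submitters' processing notes, versions not given in the sources used here). Per the file headers, its columns are a mean normalised signal over 6 libraries, log2 fold changes, their standard errors, the score of the Wald test and p-values before and after adjustment. The deposited salmon files hold estimated counts per Ensembl transcript and served here for depth alone. The edgeR test planned for genes was not run, since transcripts are not paired with genes. Intervals are 1.96 deposited standard errors. Fibroblast ATAC-seq peaks at these genes were not analysed here: the deposited lists, read for peak ends alone, reach 197160924 on chromosome 1 and name random chromosomes, so they are not on GRCm38.p6, the build of the RefSeq tables. Retinal fragments were made with cellranger-arc 2.0.1 on mm10, per the file headers. The deposited files list unique fragments with counts of read pairs. Fragments overlapping a window were counted with Python 3.11.15 (numpy 2.4.6), with exact binomial intervals from scipy 1.17.1. Counting and adjustment were checked on simulated data. The genes, lists and tests were chosen with earlier results of these data known. All 10 factors are named. Cell markers are named as a check of the cells. In the other lists the named genes are the 2 with the smallest adjusted p in each direction, with Cdh1, Cdh2, Vim and Fn1. Id1, Epcam, Cdh3, Meox2, Snai3, Pdgfra, Pdgfrb and Thy1 were named outside that rule after their values were seen. The symbols of all 10 match the gene name table.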

Additional observations from a re-analysis of the deposited data

How the results depend on the processing

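No paired analysis was possible because the deposited gene table holds no values per library. For the same reason leaving out a library, filters on counts per library, and DESeq2 or edgeR on gene counts were not run, and the alternatives planned for peaks at the genes were not run because the lists are on another build. Of the 10 factors 4 were called. The number was 4 as well at an adjusted p under 0.01 (22.5% of all genes called), with Benjamini-Hochberg adjustment over all 24712 genes with a raw p (19.3%), and at a mean of at least 10 (34.1%), each time Snai2, Prrx1, Prrx2 and Zeb2. It was 3 with Bonferroni adjustment (10.7%) and 0 when an absolute log2 fold change over 1 was also required, where 2.15% of all genes were called. Of the other lists, the count of mesenchymal transcription factors went from 10 to 6 at an adjusted p under 0.01 and 4 with Bonferroni adjustment, and that of co-repressors from 4 to 1 under both. With Bonferroni adjustment, where calls over all genes fell from 30.6% to 10.7%, dimer partners and inhibitors went from 5 to 3, epithelial genes from 3 to 1 and mesenchymal effectors from 15 to 11. With an absolute log2 fold change over 1 required, 1 epithelial gene and 0 genes of each other list were called. In retina the number of gene windows past 1.5-fold, 0 by CPM, was 1 when scaled to fragments in gene windows (Snai2; 5.64% of all windows) and 1 in barcodes with at least 3000 fragments (Twist1; 8.92%). Prrx1 reversed in those barcodes, to 1.28. The retinal alternatives were added after the data were seen. The cause of these differences was not tested. Retinal promoter counts of 1 to 29 fragments limit what can be compared at all starts but those of Snai1 and, in part, Zeb2.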
